A study of Mus musculus with 30 samples.

Results

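Cells given 3 µM cannabidiol (CBD) for 24 h were compared with cells given 1.5, 0.75 or 0.325 µM CBD for the same time. The comparison holds the 12 libraries whose treatment label names a CBD dose at 24 h, 3 at 3 µM and 9 at the lower doses (3 per dose), of 30 libraries in the series. All genes were used, and no vehicle library enters the contrast. The 18 other libraries, 3 of vehicle at 24 h and 15 of 6 h, were used to estimate the spread or as values set beside those of the 12. All groups are mHypoA-2/12, a line derived from neurons of the adult mouse hypothalamus and immortalized with SV40 large T antigen. CBD was given in DMSO, at the same final amount of DMSO in every CBD group and in the vehicle, and the label tissue of all libraries is hypothalamus. A single line holds no variation between animals, and no label says that the 3 libraries of a group came from separate cultures, so the p-values measure only the spread between these libraries. Reads came from the 3′ ends of polyadenylated transcripts, by the QuantSeq kit, and levels are given as CPM, read counts scaled to a common library size with edgeR's TMM factors, which compare a gene between libraries and not genes with each other. Where 3 values are given for a dose they are those of replicates 1, 2 and 3 in this order. The labels hold no replicate numbers, and these numbers follow the order of the libraries in the series. Replicate 1 of 3 µM at 24 h is library A16.

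CBD is a cannabinoid of the hemp plant that does not intoxicate. It is known to act on several receptors, ion channels and enzymes, among them enzymes and carrier proteins that end the action of the cell's own cannabinoids. In the hypothalamus these lipid signals take part in the control of feeding and energy use, and STAT3 and its inhibitor SOCS3 carry and dampen the leptin signal there. Chemokines and matrix proteases, which also appear below, are known targets of the factors NF-kB and AP-1. A comparison between doses asks whether the transcriptome at the highest dose differs from that at doses below it.

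The share of uniquely mapped reads that fell outside annotated genes differed between the groups. It was 20.8%, 21.7% and 21.6% in replicates 1, 2 and 3 of 3 µM, and 18.7% to 20.4% (median 19.6%) in the 9 lower-dose libraries, so that the groups did not overlap. The means were 21.4% ± 0.487 (SD, n = 3) and 19.5% ± 0.464 (SD, n = 9), a difference of 1.87 percentage points. This difference was known when the comparison was chosen and is a description with no test. The vehicle libraries of 24 h were at 20.9% to 22.2% and all libraries of 6 h at 17.7% to 21.4%. Reads that overlapped more than 1 gene were 4.77% ± 0.0494 of uniquely mapped reads at 3 µM and 4.98% ± 0.0703 at the lower doses, again without overlap (exact two-sided permutation p = 0.00455, the smallest that the 220 splits of 3 against 9 allow, or 0.0136 after Benjamini-Hochberg adjustment over 6 library measures). The 10 most abundant genes took 12.0% ± 0.380 of the reads on genes at 3 µM and 11.2% ± 0.377 at the lower doses (exact permutation p = 0.00909, adjusted 0.0182). The 6 measures include the share outside genes, known beforehand to differ, so both adjusted values are smaller than they would be without it. Reads on genes per library numbered 2304492 to 2518615 at 3 µM, 2192094 to 4420675 at the lower doses and 2942410 to 4162843 in the vehicle (exact permutation p = 0.164 for 3 µM against the lower doses). Mitochondrial reads were 7.83% ± 0.363 at 3 µM and 7.56% ± 0.255 at the lower doses (exact permutation p = 0.173).

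One library of 3 µM stood apart. Replicate 1 had 25.1 multiple alignments per 100 uniquely mapped reads, against 21.4 and 22.01 in replicates 2 and 3, 21.2 to 22.8 at the lower doses and 23.02 to 27.7 in the libraries of 6 h. Processed pseudogenes, which are copies of mRNAs without introns, took 3.73% of its reads on genes, against 2.21% and 2.67% in the other 3 µM libraries, 1.73% to 2.34% at the lower doses, 2.11% to 2.59% in the vehicle of 24 h and 2.87% to 3.96% at 6 h. Over 4129 genes that differed between the lower doses of 24 h and of 6 h, a score of 0 was set to the mean of the lower doses at 6 h and a score of 1 to their mean at 24 h. On this scale replicate 1 lay at 0.35, replicate 2 at 0.92 and replicate 3 at 0.68, the lower-dose libraries at 0.83 to 1.15, the vehicle of 24 h at 0.64 to 0.91 and the libraries of 6 h at −0.19 to 0.17. Without pseudogenes (3669 genes) the 3 µM libraries lay at 0.47, 0.90 and 0.64. The counts of calls with these measures as covariates are given below, and most of the genes described one by one are given with and without replicate 1. Replicates 1 and 2 of 3 µM also had the largest difference of all replicate pairs of the 12 libraries (chi-square per gene of 10.4, against 2.17 to 8.51 in the others), and in no group were replicates within counting noise of each other, for which this value is 1.

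**Figure D1:**
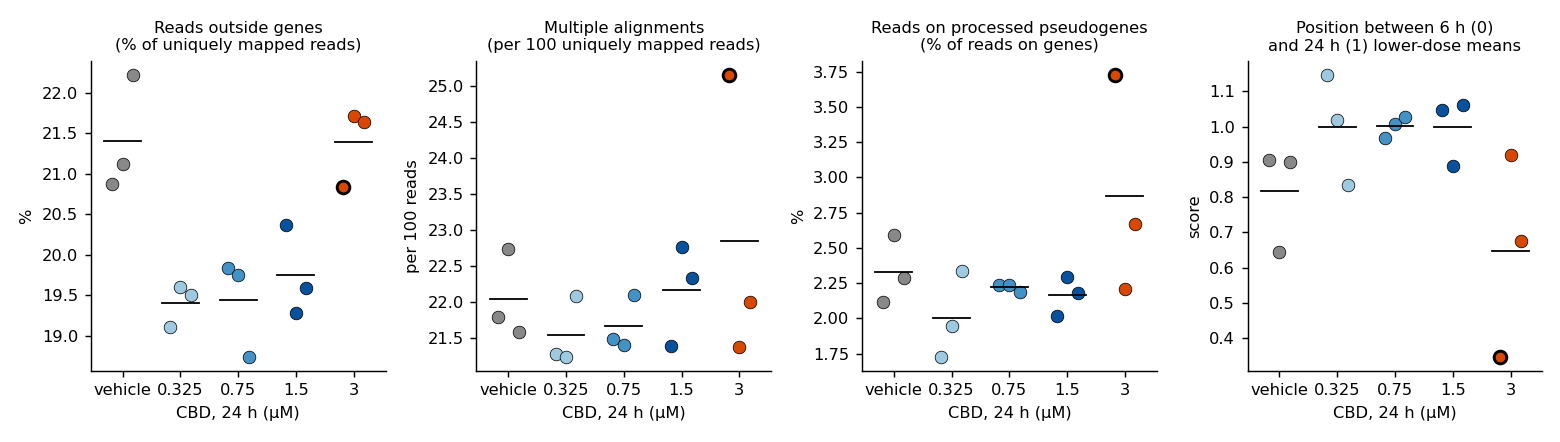
Each point is a library of 24 h, grouped by CBD dose (x axis, µM). The panels give reads outside genes (%), multiple alignments per 100 uniquely mapped reads, reads on processed pseudogenes (%) and the position between the lower-dose means of 6 h (0) and 24 h (1), bars are group means, and replicate 1 of 3 µM has a thick outline. All 3 µM libraries lie above the lower doses in the first panel, and replicate 1 lies apart in the other 3, at 25.1, 3.73% and 0.35.

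Of 12118 genes tested, 1275 (10.5%) passed a false discovery rate (FDR) of 0.1 in the quasi-likelihood test of edgeR, 771 higher (6.36%) and 504 lower (4.16%) at 3 µM than at the mean of the lower doses. Most changes were small, with 147 of the called genes past a log2 fold change of 1 in size. For 553 genes (4.56%) all 3 libraries of 3 µM lay on the same side of all 9 lower-dose libraries, 265 higher (2.19%) and 288 lower (2.38%), and 405 of them (3.34%) were also called. The number of calls rested on the 3 µM libraries. Without replicate 1 it was 68 (0.543%), 45 higher (0.359%) and 23 lower (0.184%), at 1527 genes with an unadjusted p under 0.05 against 2620 with all libraries. Without replicate 2 it was 2303 and without replicate 3 it was 447. Of the 68 genes, 65 were also called with all libraries. Of the 1275 genes, 1269 kept their sign without replicate 1, and the median size of their log2 fold changes moved from 0.55 to 0.41. The 1275 were chosen in a fit that holds the libraries kept here, so the shared signs are no independent support. Over all gene lists used below 179 members were called, and 15 without replicate 1. These are counts with no share of the members tested, so they cannot be set beside the 10.5% of all genes. With reads outside genes as a covariate (their share in each library), 30 genes (0.248%) were called, 28 higher (0.231%) and 2 lower (0.0165%), of which 25 were called without it. With the log2 read total as a covariate 22 genes were called, with multiple alignments 175, and with the share of pseudogene reads 0 (695 at an unadjusted p under 0.05). Since the share outside genes does not overlap between the groups, a change with the dose and a change with the share cannot be told apart in these libraries.

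**Figure D2:**
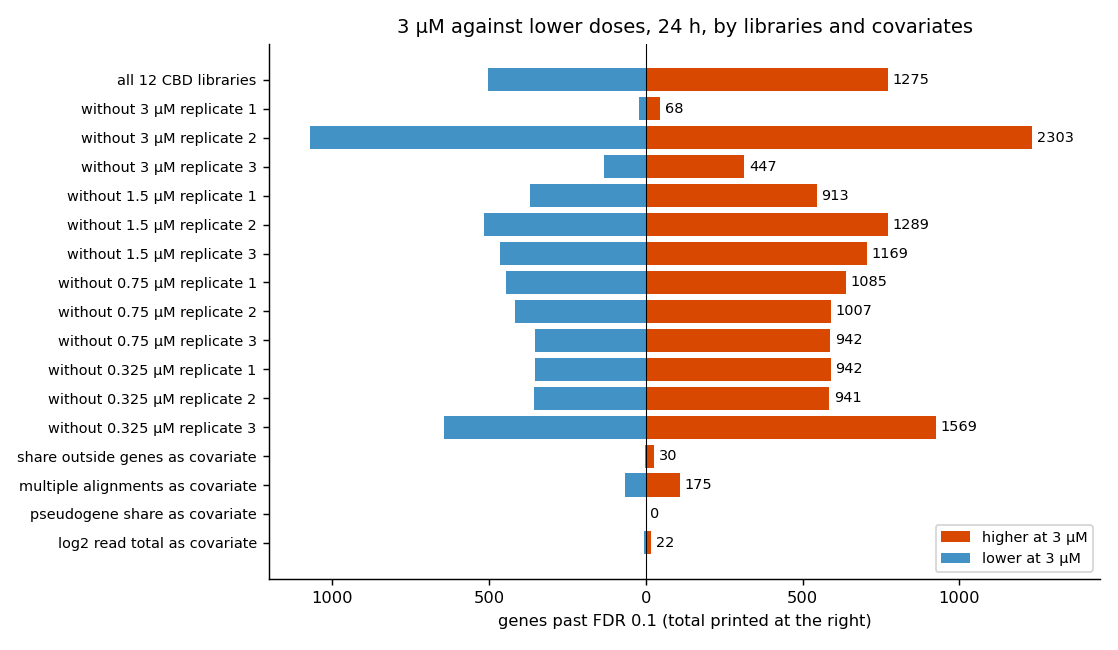
Number of genes past an FDR of 0.1 for 3 µM against the lower doses at 24 h (x axis, genes), higher to the right and lower to the left, with all 12 CBD libraries, with each left out in turn, and with 4 library measures as covariates. The total runs from 68 without replicate 1 of 3 µM to 2303 without replicate 2, against 1275 with all libraries.

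The 12 genes with the smallest p that were higher in every 3 µM library were 5 processed pseudogenes (Gm8472, Gm44010, Gm44703, Gm10051 and Gm5781), 1 Ensembl gene with no symbol in the annotation used (ENSMUSG00000119584) and 6 protein-coding genes. Prmt1, the main enzyme that sets asymmetric dimethylation of arginines in proteins, was at 903, 424 and 705 CPM at 3 µM and 220.1 to 416 CPM (median 365) at the lower doses. Its log2 fold change was 0.99 (SE 0.15, FDR = 0.00118), or 0.72 without replicate 1 (FDR = 0.0335). All 3 libraries were above the highest lower-dose library, replicate 2 by little. Smtn, a protein of contractile actin fibres, was at 73.1, 58.9 and 81.5 CPM at 3 µM and 31.3 to 47.5 CPM (median 38.7) at the lower doses. The log2 fold change of Smtn was 0.87 (SE 0.14, FDR = 0.00118), or 0.85 without replicate 1 (FDR = 0.0248). Ap2s1, the small subunit of the AP-2 adaptor of clathrin-coated pits, was at 277, 213 and 274 CPM at 3 µM and 136 to 178 CPM (median 171) at the lower doses, with a log2 fold change of 0.64 (SE 0.11, FDR = 0.00167), or 0.57 without replicate 1 (FDR = 0.0335). Its 3 libraries at 3 µM stood clear of the lower doses.

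Igfbp2, a secreted binding protein of insulin-like growth factors, was at 208, 77.2 and 102 CPM at 3 µM and 33.6 to 76.5 CPM (median 59.5) at the lower doses. Its log2 fold change of 1.14 (SE 0.20, FDR = 0.00249), or 0.60 without replicate 1 (FDR = 0.139), rested in good part on replicate 1, and replicate 2 was just above the highest lower-dose library. Lrrc58, a protein with leucine-rich repeats, was at 536, 281 and 392 CPM at 3 µM and 169.9 to 266 CPM (median 219) at the lower doses, with a log2 fold change of 0.84 (SE 0.14, FDR = 0.00173), or 0.57 without replicate 1 (FDR = 0.0969). Eno1b, a copy of the glycolytic enolase gene, was at 74.4, 21.8 and 29.5 CPM at 3 µM and 13.4 to 19.9 CPM (median 15.5) at the lower doses. Replicate 1 stood far above the other 2 libraries in this gene, whose log2 fold change was 1.38 (SE 0.23, FDR = 0.00173), or 0.66 without replicate 1 (FDR = 0.175). Gm8472 on chromosome 15 had the smallest p of all genes, at 233, 114 and 177 CPM at 3 µM and 57.1 to 91.0 CPM (median 84.7) at the lower doses, with a log2 fold change of 1.12 (SE 0.16, FDR = 0.000568), or 0.85 without replicate 1 (FDR = 0.0248), and Gm44010 on chromosome 6 was at 96.1, 35.0 and 53.3 CPM at 3 µM and 15.001 to 29.03 CPM (median 21.9) at the lower doses, with a log2 fold change of 1.45 (SE 0.21, FDR = 0.000568), or 0.96 without replicate 1 (FDR = 0.0469). The 4 others had log2 fold changes of 0.99, or 0.70 without replicate 1 (ENSMUSG00000119584), 1.15, or 0.84 without replicate 1 (Gm44703), 0.91, or 0.83 without replicate 1 (Gm10051) and 0.80, or 0.65 without replicate 1 (Gm5781).

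The 12 genes with the smallest p that were lower in every 3 µM library were 11 protein-coding genes and the processed pseudogene Gm8420. Hspb1, a small heat shock protein that keeps unfolding proteins from clumping and binds actin filaments, was at 72.3, 81.5 and 67.1 CPM at 3 µM and 98.5 to 161 CPM (median 129) at the lower doses. The log2 fold change of Hspb1 was −0.83 (SE 0.13, FDR = 0.00118), or −0.82 without replicate 1 (FDR = 0.0248), and the 3 libraries at 3 µM lay close together and below all others. Cdk1, the kinase that drives entry into mitosis, was at 83.6, 188 and 145 CPM at 3 µM and 205 to 314 CPM (median 257) at the lower doses, with a log2 fold change of −0.92 (SE 0.18, FDR = 0.00518), or −0.66 without replicate 1 (FDR = 0.0985). Replicate 1 was the lowest and replicate 2 close to the lower doses. Lamp1, the main membrane glycoprotein of lysosomes, was at 165, 207 and 147 CPM at 3 µM and 212 to 414 CPM (median 261) at the lower doses, with a log2 fold change of −0.73 (SE 0.16, FDR = 0.00983), or −0.70 without replicate 1 (FDR = 0.0985), with a wide range among the lower doses. Dvl1, a transducer of Wnt signals, was at 14.6, 18.8 and 12.98 CPM at 3 µM and 23.9 to 34.4 CPM (median 26.5) at the lower doses, with a log2 fold change of −0.86 (SE 0.18, FDR = 0.00721), or −0.83 without replicate 1 (FDR = 0.0991).

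Twsg1, a secreted regulator of bone morphogenetic proteins, was at 27.2, 49.1 and 28.6 CPM at 3 µM and 53.7 to 76.8 CPM (median 61.9) at the lower doses, and Msrb3, which repairs oxidized methionines, at 28.8, 46.9 and 24.2 CPM at 3 µM and 48.6 to 73.4 CPM (median 61.1) at the lower doses. Both were low in replicates 1 and 3 and near the lower doses in replicate 2, with log2 fold changes of −0.88 (SE 0.17, FDR = 0.00496), or −0.73 without replicate 1 (FDR = 0.0985) and −0.85 (SE 0.17, FDR = 0.00672), or −0.76 without replicate 1 (FDR = 0.0985). Siva1, a pro-apoptotic protein, was at 135, 183 and 153 CPM at 3 µM and 201 to 279.8 CPM (median 239) at the lower doses, with a log2 fold change of −0.64 (SE 0.13, FDR = 0.00555), or −0.55 without replicate 1 (FDR = 0.0985). The other 5 had log2 fold changes of −0.71, or −0.61 without replicate 1 (Prune1, an exopolyphosphatase), −0.84, or −0.73 without replicate 1 (Dctn6, a subunit of the dynactin complex), −0.56, or −0.46 without replicate 1 (Psma2, a subunit of the proteasome core), −0.63, or −0.46 without replicate 1 (Mfsd1, a lysosomal transporter) and −0.78, or −0.74 without replicate 1 (Gm8420).

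**Figure D3:**
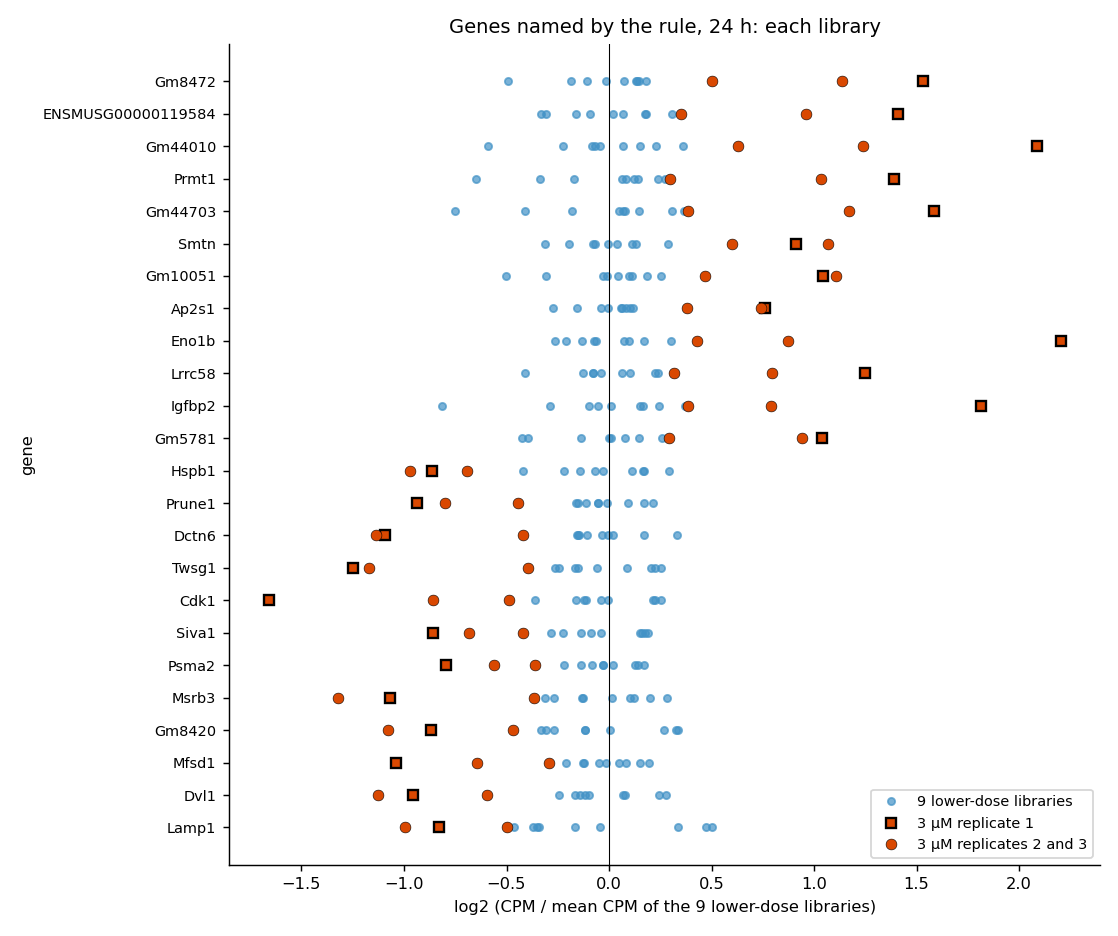
Level of the 24 genes in each of the 12 libraries, as log2 of its CPM over the mean CPM of the 9 lower-dose libraries (x axis), with a row per gene. The 3 µM libraries (orange, replicate 1 as a square) lie right of all lower-dose libraries (blue) in the upper 12 rows and left of them in the lower 12. Replicate 1 is the farthest out in genes such as Eno1b, Igfbp2 and Cdk1, and not in Smtn, Hspb1 or Lamp1.

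Oip5, a protein that loads the centromeric histone onto chromosomes after mitosis, had the largest fall of the genes named here. It was at 2.51, 2.99 and 3.13 CPM at 3 µM and 9.22 to 15.6 CPM (median 12.7) at the lower doses, and its log2 fold change was −2.08 (SE 0.31, FDR = 0.000899), or −1.995 without replicate 1 (FDR = 0.0248). The 3 libraries at 3 µM lay close together and far below the lower doses and the vehicle, which was at 10.7, 8.10 and 10.3 CPM. Oip5 was also the only gene called between 3 µM and 0.75 µM alone (log2 fold change −2.13, FDR = 0.0199). Elp6, a subunit of the Elongator complex that modifies tRNAs, was the only gene called among the 3 lower doses (FDR = 0.00709). It was at 22.8, 24.4 and 32.7 CPM at 0.325 µM, at 74.0, 92.7 and 63.1 CPM at 0.75 µM, at 83.4, 67.2 and 85.0 CPM at 1.5 µM, and at 178, 65.3 and 99.4 CPM at 3 µM. The vehicle was at 27.97, 28.02 and 34.3 CPM. The lowest dose and the vehicle thus overlapped, and all libraries of the 3 higher doses lay above both. Against the mean of the lower doses its log2 fold change was 1.07 (SE 0.18, FDR = 0.00173), or 0.60 without replicate 1 (FDR = 0.129).

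Processed pseudogenes were called almost wholly in 1 direction. Of 519 tested, 168 were higher (32.4%) and 2 lower (0.385%), Gm8420 and Rps3a3, with a median log2 fold change of 0.61 beside −0.02 over 10595 protein-coding genes, of which 550 were higher and 488 lower. Without replicate 1 the pseudogenes had a median of 0.20, with 16 higher and 2 lower. Reads of a pseudogene and of its parent mRNA are hard to tell apart, so these counts are uncertain for the single copy. Among 97 pseudogenes named after a tested parent gene (59 parents), the pseudogene had the larger log2 fold change in 79 pairs, and in 67 without replicate 1. Their median was 0.59, while the parents had a median of 0.02. Of the 59 parents 7 were higher and 6 lower, beside 6.36% and 4.16% of all genes, both larger shares than over all genes. Without replicate 1 these medians were 0.17 and −0.10.

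Single pairs of ribosomal protein genes and their copies show the range. Rpl28-ps1 was at 200.1, 117 and 214 CPM at 3 µM and 62.2 to 122 CPM (median 102) at the lower doses, with a log2 fold change of 0.93 (SE 0.15, FDR = 0.00118), or 0.83 without replicate 1 (FDR = 0.0248), while its parent Rpl28 was at 541, 535 and 359 CPM at 3 µM and 479 to 768 CPM (median 628) at the lower doses, with a log2 fold change of −0.37 (SE 0.13, FDR = 0.0808), or −0.48 without replicate 1 (FDR = 0.139). The copy was high in replicates 1 and 3 and the parent low in replicate 3. Rpl3-ps1 had a log2 fold change of 0.73 (SE 0.14, FDR = 0.00522), or 0.68 without replicate 1 (FDR = 0.0985) and Rpl3 of −0.37 (SE 0.11, FDR = 0.0481), or −0.38 without replicate 1 (FDR = 0.185). Rpl10a-ps1 had 0.85 (SE 0.15, FDR = 0.00275), or 0.66 without replicate 1 (FDR = 0.0991) and Rpl10a −0.26 (SE 0.18, FDR = 0.403), or −0.73 without replicate 1 (FDR = 0.0525). In 4 other RNA classes 0 genes were called lower. Over all genes 6.36% were higher and 4.16% lower. Of 22 small nucleolar and Cajal body RNAs tested, 6 were higher (27.3%, median 0.58). Without replicate 1 their median was 0.51 and 0 were called. Of 10 mitochondrial tRNA and rRNA genes 3 were higher (30%, median 0.38). Without replicate 1 their median was 0.43 and 1 was higher. Sense intronic RNAs had 5 higher of 48 (10.4%), or 1 without replicate 1. Antisense RNAs had 7 higher of 166, at 4.22% a smaller share than over all genes. Their median was −0.004, and 0 were called without replicate 1. Protein-coding genes with 1 exon had a median of 0.01 over 202 genes. Of these, 20 were higher (9.90%, beside 6.36% of all genes) and 5 lower (2.48%, beside 4.16%). Without replicate 1, 2 were higher and 0 lower.

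**Figure D4:**
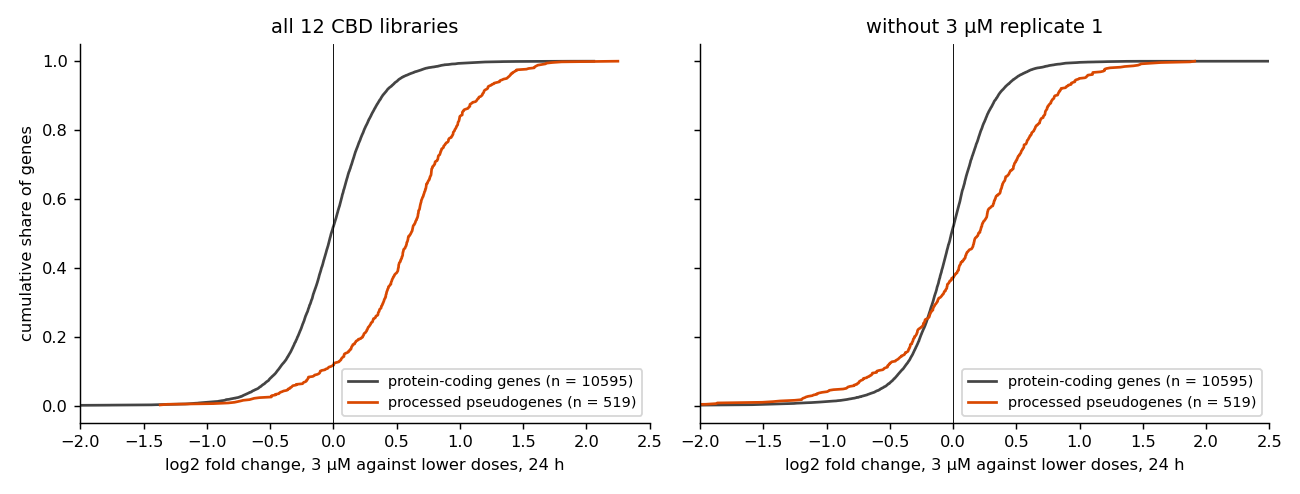
Cumulative share of genes (y axis) by log2 fold change of 3 µM against the lower doses at 24 h (x axis), for 519 processed pseudogenes and 10595 protein-coding genes, with all 12 CBD libraries (left) and without replicate 1 of 3 µM (right). The pseudogene curve lies to the right of the other, with a median of 0.61 on the left and 0.20 on the right.

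Several inflammatory genes were lower at 3 µM. Of 23 tested genes of a list of NF-kB targets and chemokines, 0 were higher and 7 lower (30.4% of the list, beside 4.16% of all genes), with a median of −0.42 beside 0.01 over all genes. Without replicate 1 the median was −0.27 and 0 of 23 passed. Saa3, an acute-phase protein of connective tissue cells, was at 509.7, 798 and 633 CPM at 3 µM and 805 to 1154 CPM (median 954) at the lower doses, below every lower-dose library, with a log2 fold change of −0.56 (SE 0.13, FDR = 0.012), or −0.42 without replicate 1 (FDR = 0.142). Cxcl5, a chemokine that draws neutrophils, was at 23.4, 23.5 and 18.8 CPM at 3 µM and 28.7 to 47.7 CPM (median 35.1) at the lower doses, with a log2 fold change of −0.72 (SE 0.18, FDR = 0.023), or −0.77 without replicate 1 (FDR = 0.134), also without overlap. The vehicle of 24 h was at 453 CPM for Saa3 and 18.6 CPM for Cxcl5 (means), on the 3 µM side of the lower doses in both. Cxcl12, the chemokine of the receptor Cxcr4, was at 1222, 1741 and 1365 CPM at 3 µM and 1599.6 to 2107 CPM (median 1912) at the lower doses, and Nfkbia, the inhibitor that holds NF-kB in the cytoplasm, at 134, 248 and 217 CPM at 3 µM and 237 to 306 CPM (median 266) at the lower doses. Both overlapped the lower doses in replicate 2, with log2 fold changes of −0.40 (SE 0.11, FDR = 0.0281), or −0.30 without replicate 1 (FDR = 0.224) and −0.45 (SE 0.12, FDR = 0.0321), or −0.23 without replicate 1 (FDR = 0.367). The other 3 called were Il1rn (−0.45, or −0.38 without replicate 1), a receptor antagonist of interleukin 1, Sod2 (−0.49, or −0.29 without replicate 1), the mitochondrial superoxide dismutase, and Tnip1 (−0.31, or −0.34 without replicate 1), a partner of the NF-kB feedback protein A20.

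Among matrix proteases more genes fell than rose. Of 17 metalloproteinases, inhibitors and plasminogen activators tested, 4 were lower (23.5%, beside 4.16% of all genes) and 1 higher (median −0.23, or −0.08 without replicate 1). Without replicate 1, 1 gene was lower and 0 higher, and 8 of 17 had positive log2 fold changes, against 3 with all libraries. Mmp13, an interstitial collagenase, was at 293, 418 and 263 CPM at 3 µM and 392 to 612 CPM (median 501) at the lower doses, with a log2 fold change of −0.64 (SE 0.13, FDR = 0.00771), or −0.58 without replicate 1 (FDR = 0.0985). Mmp3, a stromelysin of the same gene cluster on chromosome 9, was at 499, 1101 and 894 CPM at 3 µM and 1012 to 1326 CPM (median 1146) at the lower doses, with a log2 fold change of −0.46 (SE 0.14, FDR = 0.0551), or −0.20 without replicate 1 (FDR = 0.475). Replicates 1 and 3 were low in both, and replicate 2 lay among the lower doses. The others were Adamts1 at −0.68, or −0.49 without replicate 1 and Mmp11 at −0.65, or −0.62 without replicate 1, both lower, and Mmp2, a gelatinase, at 1.11, or 1.23 without replicate 1, and a low level of 7.24 CPM against 3.35 CPM.

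The promoters of 4 of these genes are shown because all 4 genes fell and the windows hold the letters of motifs named after AP-1 and NF-kB. Each is the 120 bases before the annotated start, 5′ to 3′ on the strand of the gene, from RefSeq on GRCm38.p6. For Mmp13 (chr9:7272394-7272513, plus strand) and Mmp3 (chr9:7445702-7445821, plus strand) the capitals mark TGANTCA, the motif of AP-1, and the TATA box TATAAA. For Nfkbia (chr12:55492648-55492767, minus strand) and Sod2 (chr17:13007719-13007838, plus strand) they mark the kB motif of NF-kB.
Mmp13: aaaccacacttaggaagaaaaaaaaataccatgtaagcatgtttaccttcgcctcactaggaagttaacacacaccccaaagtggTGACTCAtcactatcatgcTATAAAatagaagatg
Mmp3: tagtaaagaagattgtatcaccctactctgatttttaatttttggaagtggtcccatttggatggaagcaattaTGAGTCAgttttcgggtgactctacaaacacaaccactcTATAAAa
Nfkbia: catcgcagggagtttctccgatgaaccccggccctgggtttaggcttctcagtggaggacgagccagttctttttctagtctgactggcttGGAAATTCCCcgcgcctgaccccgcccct
Sod2: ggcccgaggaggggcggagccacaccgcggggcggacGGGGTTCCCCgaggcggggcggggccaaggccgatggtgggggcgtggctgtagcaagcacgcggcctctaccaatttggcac
TGANTCA and the kB motif were searched on both strands and TATAAA on the gene's strand, in windows of 250 bases before to 50 after the start. The kB motif was in 8.46% of all 32851 promoters and in 9 of 20 promoters of the NF-kB list (16 of 23 genes matched). Of the 7 called genes 6 were matched, and 3 had the motif (Nfkbia, Sod2 and Tnip1). The motif was also in promoters of Csf1, Cxcl1, Il6 and Nfkb2, which were not called. TGANTCA was in 7.81% of all promoters and in 3 of 11 of the protease list (10 of 17 genes matched), those of Mmp3, Mmp10 and Mmp13. TATAAA was in 8.32% of all promoters and in 4 of these 11. No 2 of these matches overlapped in the windows shown. A match describes letters and not binding.

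Among lysosomal genes, too, more fell than rose. Of 34 tested, 8 were lower (23.5%, beside 4.16% of all genes) and 1 higher (median −0.11, with or without replicate 1). Without replicate 1 the calls were 1 higher and 1 lower. Psap, the precursor of the saposins that help lysosomal enzymes degrade sphingolipids, was at 214, 309 and 190.2 CPM at 3 µM and 288 to 574 CPM (median 409) at the lower doses, with a log2 fold change of −0.77 (SE 0.17, FDR = 0.012), or −0.71 without replicate 1 (FDR = 0.112). Hexa, a subunit of hexosaminidase, was at 147, 158 and 124 CPM at 3 µM and 167 to 231 CPM (median 198) at the lower doses, below all lower-dose libraries, with a log2 fold change of −0.46 (SE 0.12, FDR = 0.0228), or −0.48 without replicate 1 (FDR = 0.13). Ctsz, Ctsa, Lamp2, Neu1 and Gaa completed the lower genes with Lamp1. Grn, the precursor of the granulins, went the other way at 639, 695 and 818 CPM at 3 µM and 508 to 654 CPM (median 551) at the lower doses, with a log2 fold change of 0.36 (SE 0.09, FDR = 0.0262), or 0.43 without replicate 1 (FDR = 0.0944), with replicate 1 the lowest of the 3 and within the range of the lower doses. Of 27 autophagy genes, 2 were called (7.41%, beside 10.5% of all genes), both lower, Ulk1 (−0.90, or −0.55 without replicate 1), a kinase that starts autophagy, and Nbr1 (−0.62, or −0.55 without replicate 1), an adaptor for its cargo.

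Nuclear genes of the respiratory chain that were called were mostly lower. In complexes II to V, 9 of 38 were lower (23.7%, beside 4.16% of all genes) and 0 higher (median −0.05, or −0.18 without replicate 1), and in complex I 5 of 36 were lower (13.9%) and 1 higher (median −0.02, or −0.13 without replicate 1). Without replicate 1, 0 genes of either list passed. Cox8a of cytochrome oxidase was at 386, 456 and 332 CPM at 3 µM and 456 to 610.0 CPM (median 549) at the lower doses, with a log2 fold change of −0.46 (SE 0.12, FDR = 0.0226), or −0.45 without replicate 1 (FDR = 0.135), and Ndufa8 of complex I at 109.9, 137 and 98.5 CPM at 3 µM and 138 to 206 CPM (median 172) at the lower doses, with a log2 fold change of −0.56 (SE 0.14, FDR = 0.0213), or −0.53 without replicate 1 (FDR = 0.139). In both, replicate 2 was the highest of the 3 and close to the lowest lower-dose library. Atp5g3 of ATP synthase (−0.37, or −0.36 without replicate 1) and Sdhc of succinate dehydrogenase (−0.52, or −0.57 without replicate 1) were lower too, and Ndufa12 (0.42, or 0.39 without replicate 1) was higher. Of the 8 proteins encoded by the mitochondrial genome that were tested, 0 passed (median 0.14). Mitochondrial ribosomal proteins had 2 higher and 3 lower of 71 (7.04% called, beside 10.5% of all genes).

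Several genes of protein synthesis rose. Aminoacyl-tRNA synthetases, which load tRNAs with amino acids, had 7 of 20 higher (35.0%, beside 6.36% of all genes) and 0 lower, with a median of 0.23. Without replicate 1 the median was 0.11 and 0 of 20 passed. Farsa, a subunit of the phenylalanine enzyme, was at 586, 416 and 559 CPM at 3 µM and 263 to 412 CPM (median 362) at the lower doses, above all lower-dose libraries, with a log2 fold change of 0.56 (SE 0.11, FDR = 0.00646), or 0.46 without replicate 1 (FDR = 0.111), and its partner Farsb was at 223, 161 and 208 CPM at 3 µM and 123 to 165 CPM (median 152) at the lower doses, with a log2 fold change of 0.40 (SE 0.11, FDR = 0.0348), or 0.29 without replicate 1 (FDR = 0.307). Sars (0.46, or 0.38 without replicate 1), Wars (0.41, or 0.38 without replicate 1), Cars, Nars and Eprs were also higher. Of 23 genes of the integrated stress response, 3 were higher and 2 lower (21.7% called, beside 10.5% of all genes), with a median of 0.21. Without replicate 1 the median was 0.05, with 1 gene higher and 0 lower. Atf5, a transcription factor of that response, was at 315, 172 and 298 CPM at 3 µM and 112 to 186 CPM (median 155) at the lower doses, with a log2 fold change of 0.81 (SE 0.14, FDR = 0.00211), or 0.65 without replicate 1 (FDR = 0.0693), with replicate 2 inside the range of the lower doses. Mthfd2 (0.52, or 0.38 without replicate 1) and Atf4 (0.33, or 0.29 without replicate 1) were higher, while Phgdh (−0.72, or −0.76 without replicate 1), of serine synthesis, and the amino acid transporter subunit Slc3a2 (−0.39, or −0.37 without replicate 1) were lower, although both belong to the same response.

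Ribosome biogenesis had 7 of 31 higher (22.6%, beside 6.36% of all genes) and 0 lower (median 0.16, or 0.10 without replicate 1, where 1 of 31 passed). Dkc1, the pseudouridine synthase of H/ACA particles, was at 332, 198 and 298 CPM at 3 µM and 140.3 to 214 CPM (median 166) at the lower doses, with a log2 fold change of 0.66 (SE 0.12, FDR = 0.00315), or 0.50 without replicate 1 (FDR = 0.0985), high in replicates 1 and 3. Nop56 of C/D particles was at 0.41, or 0.27 without replicate 1, and Ddx21, Nolc1, Wdr12, Tsr1 and Rrp12 were higher too. The 76 cytosolic ribosomal proteins did not move together, with 7 higher (9.21%) and 9 lower (11.8%, beside 4.16% of all genes). Their median was −0.09, or −0.19 without replicate 1, where 0 were higher and 4 lower. Rpl8 was at 3043, 1924 and 2474 CPM at 3 µM and 1554 to 1846 CPM (median 1767) at the lower doses, with a log2 fold change of 0.52 (SE 0.10, FDR = 0.00633), or 0.34 without replicate 1 (FDR = 0.142), while Rps18 was at 503, 702 and 482 CPM at 3 µM and 658 to 863 CPM (median 755) at the lower doses, with a log2 fold change of −0.43 (SE 0.11, FDR = 0.0244), or −0.36 without replicate 1 (FDR = 0.185). Rpl23a (0.77, or 0.47 without replicate 1) was higher and Rpl7a (−0.67, or −0.53 without replicate 1) lower. These genes have many copies in the genome, to which reads may be lost, so that single values are uncertain. Translation factors had 6 higher (15.8%, beside 6.36% of all genes) and 4 lower (10.5%, beside 4.16%) of 38, and 0 passed without replicate 1. Among those higher was Pabpc1, which binds poly(A) tails, at 0.43, or 0.32 without replicate 1.

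Glycolysis and hypoxia genes had 5 of 24 higher (20.8%, beside 6.36% of all genes) and 0 lower (median 0.12, or 0.06 without replicate 1, where 0 passed). Pkm, the last enzyme of glycolysis, was at 1736, 869 and 1086 CPM at 3 µM and 678 to 1034 CPM (median 859) at the lower doses, with a log2 fold change of 0.54 (SE 0.15, FDR = 0.0364), or 0.20 without replicate 1 (FDR = 0.583). Replicate 1 stood far above the lower doses and replicate 3 just above, while replicate 2 was near their median. Eno1 was at 96.1, 64.4 and 84.6 CPM at 3 µM and 50.5 to 62.0 CPM (median 56.3) at the lower doses, above all lower-dose libraries, with a log2 fold change of 0.54 (SE 0.13, FDR = 0.0156), or 0.40 without replicate 1 (FDR = 0.22), and Gpi1 (0.48, or 0.31 without replicate 1), Ldha (0.40, or 0.23 without replicate 1) and Aldoa (0.29, or 0.18 without replicate 1) were higher. Chromatin regulators had 6 of 41 higher (14.6%) and 0 lower (median 0.11, or 0.06 without replicate 1, where 0 passed), among them the remodellers Chd3 (0.45, or 0.26 without replicate 1), Chd4, Chd7, Chd9 and Smarca4 and the Set domain protein Setd5 (0.39, or 0.27 without replicate 1). Splicing factors had 6 higher (12.8%, beside 6.36% of all genes) and 2 lower (4.26%, beside 4.16%) of 47. The proteasome had 6 higher (17.1%) and 2 lower (5.71%) of 35, and 0 of either list passed without replicate 1. In the proteasome the higher genes included Psmc1 (0.52, or 0.48 without replicate 1) and Psmd4 (0.43, or 0.41 without replicate 1) of the regulatory particle, and the lower ones were Psma2 of the core and Psmc2.

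Of 24 heat shock proteins 4 were higher (16.7%, beside 6.36% of all genes) and 3 lower (12.5%, beside 4.16%). Without replicate 1, 0 were higher and 1 lower. The cytosolic Hsp90ab1 was at 9296, 6848 and 8148 CPM at 3 µM and 5145 to 7006 CPM (median 6038) at the lower doses, with a log2 fold change of 0.41 (SE 0.10, FDR = 0.0196), or 0.30 without replicate 1 (FDR = 0.21), and Hsp90aa1, Hspb8 and Cct5 were also higher. The small heat shock protein Cryab was at 140.0, 196 and 147 CPM at 3 µM and 193 to 261 CPM (median 225) at the lower doses, with a log2 fold change of −0.47 (SE 0.12, FDR = 0.0237), or −0.38 without replicate 1 (FDR = 0.204), and Hspb1 and Hspa1b were the other lower genes. Of 22 chaperones of the endoplasmic reticulum, 4 were higher (18.2%), Hsp90b1, Pdia3, Hspa5 and Canx, and 1 lower (4.55%), Sec61b. Without replicate 1, 0 of these 22 were higher and 1 lower. Among p53 targets 3 of 21 were higher, Zmat3 (0.51, or 0.48 without replicate 1), Phlda3 (0.44, or 0.48 without replicate 1) and Bax (0.81, or 0.38 without replicate 1), and 0 lower (14.3% higher, beside 6.36% of all genes), and 0 of 21 passed without replicate 1. NRF2 targets had 1 higher (4.55%) and 4 lower (18.2%, beside 4.16% of all genes) of 22, and 0 without replicate 1.

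In mitosis 4 of 44 genes were lower (9.09%, beside 4.16% of all genes) and 1 higher (median 0.01, 0 higher and 1 lower without replicate 1). The lower genes besides Cdk1 were Cenpa (−0.59, or −0.62 without replicate 1), the centromeric histone that Oip5 helps to load, Ccnb1 (−0.41, or −0.49 without replicate 1), the cyclin partner of Cdk1, and Cdc20 (−0.58, or −0.49 without replicate 1), an activator of the anaphase-promoting complex. Ccnb1 and Cdc20 were below all lower-dose libraries in all 3 libraries of 3 µM. DNA replication had 3 higher and 3 lower of 42 (14.3% called, beside 10.5% of all genes, 1 higher and 0 lower without replicate 1). The helicase subunit Mcm7 was at 527, 334 and 518 CPM at 3 µM and 274 to 347 CPM (median 306) at the lower doses, with a log2 fold change of 0.57 (SE 0.12, FDR = 0.00672), or 0.45 without replicate 1 (FDR = 0.129) and the polymerase Pola1 at 0.55, or 0.51 without replicate 1, while Cdc45, another part of the same helicase, was at 6.27, 11.1 and 10.7 CPM at 3 µM and 11.7 to 22.1 CPM (median 20.5) at the lower doses, with a log2 fold change of −1.05 (SE 0.24, FDR = 0.0124), or −0.83 without replicate 1 (FDR = 0.171).

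Cytoskeletal, adhesion and signalling genes were called in both directions. The share called was 28.6% in integrin and adhesion genes and 29.4% in YAP pathway genes, beside 10.5% of all genes. It was 12.0% in contractile genes, 12.5% in TGF-beta pathway genes and 7.41% in matrix glycoproteins. Without replicate 1, 0 integrin and adhesion genes passed, and 1 YAP pathway gene was lower. Of 25 actin and contractile genes tested, 2 were lower, the myosin light chain Myl6 (−0.57, or −0.53 without replicate 1) and the tropomyosin Tpm4 (−0.48, or −0.36 without replicate 1), and 1 was higher, Pfn1. The call of Pfn1, an actin-binding profilin, rested on replicate 1 alone, since it was at 122, 33.3 and 33.6 CPM at 3 µM and 24.5 to 52.7 CPM (median 37.1) at the lower doses, and its log2 fold change of 0.75 (SE 0.25, FDR = 0.0735), or −0.17 without replicate 1 (FDR = 0.781), changed sign. Of 21 integrin and adhesion genes 3 were higher and 3 lower, among them Itga6 (0.71, or 0.44 without replicate 1) and Itgb1 (−0.42, or −0.19 without replicate 1). Of 17 YAP pathway genes 2 were higher and 3 lower, with Yap1 at 51.4, 109.2 and 77.9 CPM at 3 µM and 99.3 to 145 CPM (median 119.6) at the lower doses, with a log2 fold change of −0.62 (SE 0.17, FDR = 0.0284), or −0.38 without replicate 1 (FDR = 0.292) and its kinase Lats2 at 48.0, 47.4 and 30.9 CPM at 3 µM and 50.0 to 92.9 CPM (median 61.9) at the lower doses, with a log2 fold change of −0.67 (SE 0.18, FDR = 0.0273), or −0.78 without replicate 1 (FDR = 0.0991). Of 24 TGF-beta pathway genes 1 was higher, Inhba (0.68, or 0.30 without replicate 1), a subunit of activin, and 2 were lower, Id3 (−0.64, or −0.46 without replicate 1) and Tgfb3 (−0.66, or −0.38 without replicate 1). Of 26 collagens 0 were called (median −0.17, or −0.02 without replicate 1), and of 27 matrix glycoproteins 2 were lower and 0 higher.

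**Figure D5:**
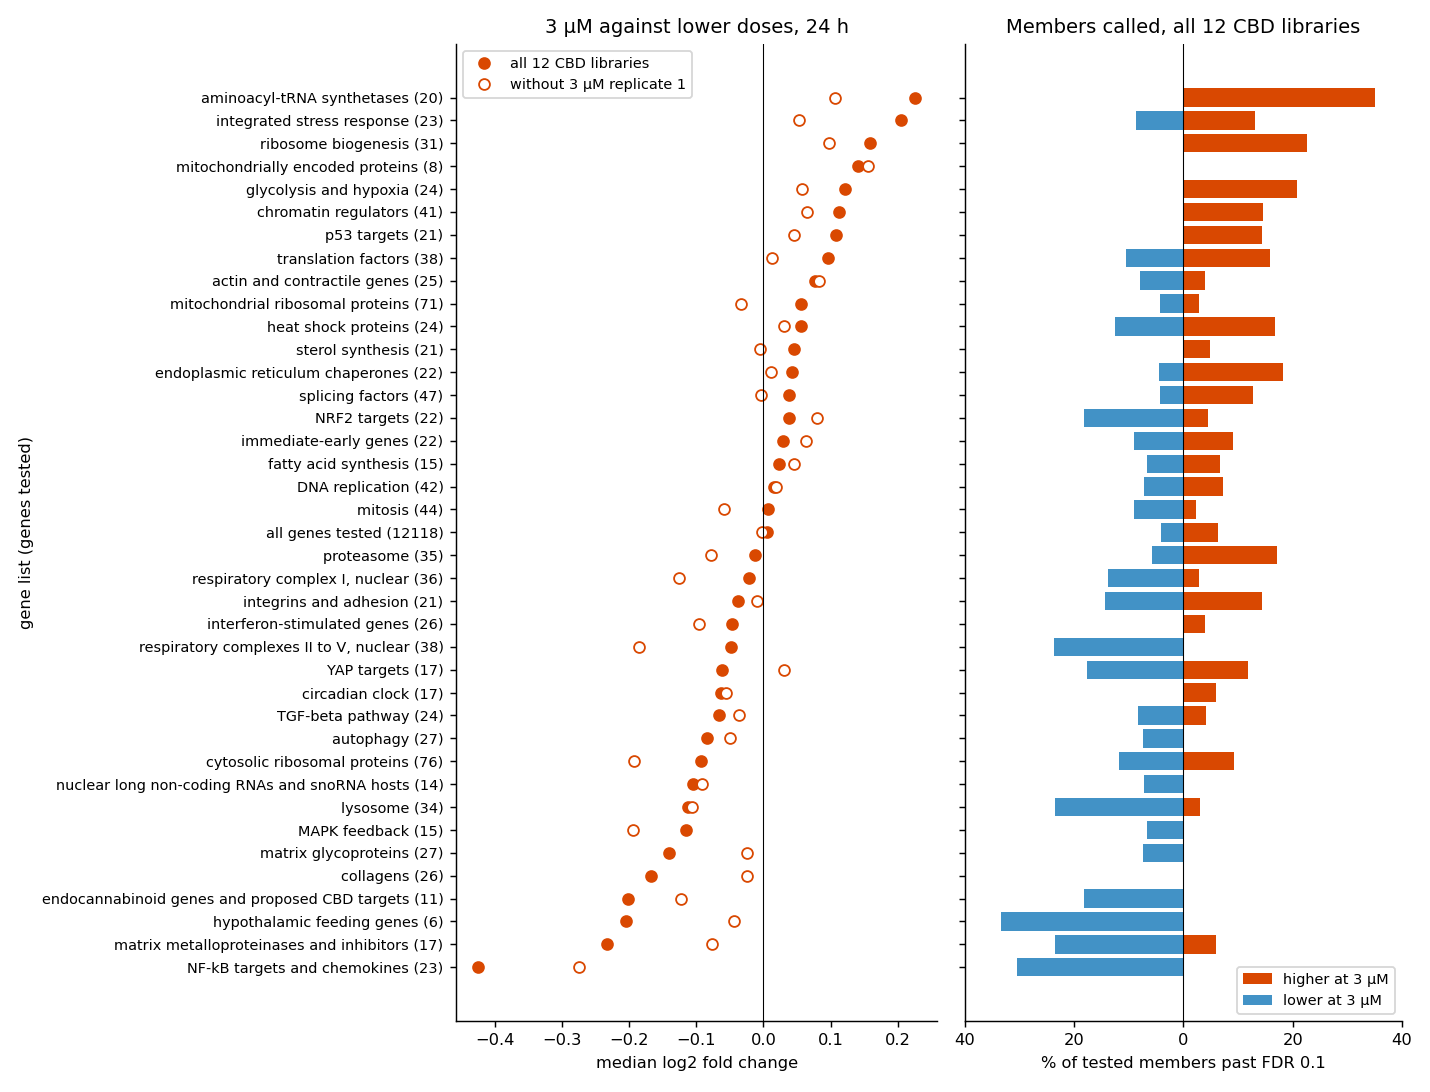
Gene lists with the number of genes tested in brackets, by median log2 fold change of 3 µM against the lower doses (left, x axis, filled with all 12 CBD libraries and open without replicate 1 of 3 µM) and by the share of members past an FDR of 0.1 (right, x axis, %, higher in orange and lower in blue). NF-kB targets and chemokines have the lowest median, −0.42 or −0.27, and aminoacyl-tRNA synthetases the highest with all libraries, 0.23 or 0.11.

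The known handling of cannabinoids and of feeding signals was little represented. Of 11 endocannabinoid genes and proposed targets of CBD that were tested (33 listed), 2 were lower (18.2%, beside 4.16% of all genes) and 0 higher. Fabp5, a fatty acid binding protein that carries cannabinoids inside cells, was at 57.2, 60.6 and 41.6 CPM at 3 µM and 62.3 to 93.8 CPM (median 73.4) at the lower doses, below all lower-dose libraries, with a log2 fold change of −0.53 (SE 0.15, FDR = 0.0364), or −0.59 without replicate 1 (FDR = 0.139). Faah, the hydrolase of anandamide, was at 0.836, 2.13 and 1.34 CPM at 3 µM and 2.11 to 6.98 CPM (median 4.05) at the lower doses, with a log2 fold change of −1.53 (SE 0.54, FDR = 0.0893), or −1.26 without replicate 1 (FDR = 0.427), a low level of a few reads per library. Of 6 genes of feeding control that were tested (30 listed), 2 were lower (33.3%, beside 4.16% of all genes) and 0 higher. Stat3, the transcription factor of the leptin receptor, was at 231, 361 and 299 CPM at 3 µM and 365 to 513 CPM (median 436) at the lower doses, below all lower-dose libraries, with a log2 fold change of −0.58 (SE 0.13, FDR = 0.0113), or −0.43 without replicate 1 (FDR = 0.141). Socs3, its feedback inhibitor, was at 16.7, 35.8 and 29.5 CPM at 3 µM and 32.9 to 63.5 CPM (median 42.1) at the lower doses, with a log2 fold change of −0.71 (SE 0.21, FDR = 0.0414), or −0.46 without replicate 1 (FDR = 0.364), with replicate 1 the lowest and replicate 2 within the range of the lower doses.

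Markers bore out the label of hypothalamic neurons only in part. Of 18 neuronal markers 8 were above 1 CPM on average, among them Map2, while Snap25, Dcx and Gad1 had 0 reads in all 12 libraries, which allows up to 0.0854 CPM over the 12 libraries together. Of the 7 tested, Nefm and Gap43 were higher and 0 lower. Nefm, a neurofilament subunit, was at 73.1, 22.2 and 41.2 CPM at 3 µM and 18.1 to 33.8 CPM (median 22.2) at the lower doses, with a log2 fold change of 0.93 (SE 0.23, FDR = 0.0191), or 0.40 without replicate 1 (FDR = 0.494). Gap43 had 1.099 (FDR = 0.0783), or 1.33 without replicate 1, at a low mean of 4.67 CPM over the 12 libraries. Of those that did not pass, Stmn2 had −0.65, Map2 −0.10, Tubb3 0.09, Eno2 0.15 and Nefl 0.64. The summed level of the neuronal list was 199 to 241 CPM at 3 µM and 155 to 196 CPM at the lower doses. Mesenchymal markers were abundant, with 13 of 14 above 1 CPM and a summed level of 6675 to 7599 CPM at 3 µM and 7275 to 8148 CPM at the lower doses, and 2 were lower, Pdgfrb (−0.44, or −0.35 without replicate 1) and Postn (−0.43, or −0.36 without replicate 1). The progenitor factor Sox2 (1.32, or 0.65 without replicate 1) and the microglial receptor Cx3cr1 (0.95, or 0.64 without replicate 1, at 17.3 and 9.09 CPM) were higher. Sox2 was at a low mean of 5.94 CPM over the 12 libraries. Of the 4 progenitor markers tested, Nes (−0.21), Vim (0.05) and Pax6 (0.61) did not pass. The other 2 tested microglial markers did not pass, Tmem119 (−0.21, at a mean of 277 CPM) and Csf1r (−0.06, at 10.7 CPM). Among the other glial lists 0 passed, with Sox9 at 177 CPM and Gja1 at 32.7 CPM (astrocyte) and Cspg4 at 37.6 CPM and Pdgfra at 32.4 CPM (oligodendrocyte lineage), while the microglial genes Itgam, C1qa and C1qb, the astrocyte genes Gfap and Aqp4 and the oligodendrocyte genes Olig1, Olig2 and Sox10 had 0 reads. Their part in the results was not tested.

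The remaining lists are given by count, with the share called, beside 10.5% of all genes. Immediate-early genes had 2 higher, Jund and Fos, and 2 lower, Junb and Fosl2, of 22 (18.2%). Feedback genes of MAP kinase had 0 higher and 1 lower of 15 (6.67%), sterol synthesis 1 and 0 of 21 (4.76%), and fatty acid synthesis 1 and 1 of 15 (13.3%). Interferon-stimulated genes had 1 and 0 of 26 (3.85%), and the circadian clock 1 and 0 of 17 (5.88%). Nuclear long non-coding RNAs and hosts of small nucleolar RNAs had 0 and 1 of 14 (7.14%).

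Against single doses the number of calls followed no order of dose. It was 964 (7.96%) against 0.325 µM, 569 higher (4.7%) and 395 lower (3.26%), 1 (0.00825%) against 0.75 µM, and 474 (3.91%) against 1.5 µM, 258 higher (2.13%) and 216 lower (1.78%). At an unadjusted p under 0.05 these were 2401, 1563 and 2170 genes, and DESeq2 called 118 against 0.75 µM, so that the low count there depends on the test. Saa3 had log2 fold changes of −0.61, −0.54 and −0.53 against 0.325, 0.75 and 1.5 µM, and Hspb1 of −1.03, −0.71 and −0.74. Prmt1 had 1.22, 0.78 and 0.96. Among the 3 lower doses 1 gene was called (0.00825%), Elp6, and 451 had an unadjusted p under 0.05. A linear trend in log2 dose over the 4 doses gave 201 genes, 164 higher and 37 lower.

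Of the genes called with that share of outside reads as covariate, the 10 with the smallest p were 6 processed pseudogenes (Gm44010, Gm12346, Gm16148, Gm3362, Gm8472 and Rpl35-ps1) and 4 protein-coding genes. Med25, a subunit of the Mediator complex, was at 70.2, 29.4 and 35.4 CPM at 3 µM and 17.6 to 29.5 CPM (median 22.1) at the lower doses. Its log2 fold change was 0.99 (FDR = 0.00678), 0.51 without replicate 1 (FDR = 0.285), or 1.74 (FDR = 0.0723) with the covariate. Pggt1b, the beta subunit of a geranylgeranyl transferase, was at 17.97, 33.3 and 25.5 CPM at 3 µM and 39.0 to 49.1 CPM (median 41.6) at the lower doses, below all lower-dose libraries. Its log2 fold change was −0.75 (FDR = 0.0158), −0.55 without replicate 1 (FDR = 0.200), or −1.41 (FDR = 0.0723) with the covariate. Eno1b had 1.992 (FDR = 0.0723) with it, and Dnajc15, a mitochondrial co-chaperone, had 0.47 (FDR = 0.137) without and 1.40 (FDR = 0.0723) with it. In Gm12346 (0.70, or 0.22 without replicate 1), Gm16148 (0.64, or 0.04 without replicate 1), Gm3362 (0.80, or 0.25 without replicate 1) and Rpl35-ps1 (0.86, or 0.39 without replicate 1) most of the change without the covariate rested on replicate 1. Gm8472, Gm44010 and Gm13498, all processed pseudogenes, were called with all libraries, without replicate 1 and with the covariate. Gm13498 was at 80.2, 34.98 and 65.4 CPM at 3 µM and 19.2 to 36.3 CPM at the lower doses, so that replicate 2 overlapped them.

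At 6 h no gene passed between the same doses. Of 12012 genes tested, 0 were called by edgeR and 0 by DESeq2 between 3 µM and the lower doses, with 624 at an unadjusted p under 0.05. The change from the lower doses to 3 µM differed between the times for 306 of 12790 genes (2.39%), 164 more positive (1.28%) and 142 more negative (1.11%) at 24 h, by the interaction term. That count was 0 without replicate 1 of 3 µM at 24 h (1394 genes at an unadjusted p under 0.05), 1115 without replicate 2 and 12 without replicate 3. Of the 306 genes, 303 had the same sign without replicate 1, and the median size of the difference moved from 0.89 to 0.73 on the log2 scale. Here too the genes were chosen with the kept libraries in the fit, so the signs are no independent support. Prmt1 had a log2 fold change of 0.10 at 6 h, Smtn of −0.03, Cdk1 of 0.12, Mmp13 of 0.16 and Saa3 of 0.02, beside the 24 h values above. Hspb1 had −0.15, and its difference between the times did not pass (FDR = 0.264).

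The vehicle of 24 h lay nearer to 3 µM than to the lower doses in some of these genes, such as Mmp13, Saa3 and Adamts1. It lay nearer to the lower doses in others, such as Hspb1 and Prmt1. Between 3 µM and the vehicle 1 gene was called (0.00825%), Elp6, and between the mean of the lower doses and the vehicle 30 (0.248%), 21 higher (0.173%) and 9 lower (0.0743%) at the lower doses. These contrasts share libraries with that of 3 µM against the lower doses, so their values are set side by side. Mmp13 was at 289 CPM in the vehicle (mean), with a log2 fold change of 0.17 for 3 µM against vehicle and 0.81 for the lower doses against vehicle. Saa3 had 0.51 and 1.07, Adamts1 had −0.16 and 0.52, and Hspb1 had −0.68 and 0.15. Prmt1 had 0.60 and −0.39, and Smtn had 0.45 and −0.42. In the NF-kB list the medians were −0.16 and 0.17, and in the pseudogenes 0.45 and −0.18.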

How the data were processed

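The deposited files hold raw counts of reads per Ensembl gene, 1 table per library, which the authors made from single-end QuantSeq FWD reads by trimming with Flexbar, alignment with STAR to GRCm39 and counting with HTSeq on Ensembl annotation. The submitters' processing notes list FastQC 0.11.9, STAR 2.7.5c, HTSeq 1.99.2 and DESeq2 3.16. The strand setting of the counting is not given in the sources used here, so antisense and overlapping genes are uncertain. Rows for reads outside genes, ambiguous or multiply aligned reads stayed out of library sizes and tests, and reads outside genes were 17.7% to 22.2% of uniquely mapped reads. Symbols came from GENCODE M21, on the older build GRCm38, which named 52000 of 56941 gene IDs.

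Groups were those of the treatment labels. Counts were fitted with edgeR 4.0.16 (TMM, filterByExpr, quasi-likelihood test, Benjamini-Hochberg FDR of 0.1; limma 3.58.1, R 4.3.3). The 15 libraries of 24 h shared the estimate of the spread, and 3 µM was set against the mean of the 3 lower doses. The fitting code was tested on simulated data. DESeq2 1.42.0, other filters, normalizations and covariates, and leaving out each library were the alternatives. Log2 fold changes carry their standard errors (SE), and CPM values use the read totals of the tested genes scaled by TMM. Library measures were compared by exact two-sided permutation tests. Depth was 1839621 to 4420675 reads on genes, which limits genes of a few CPM.

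Named were the 12 genes per direction with the smallest p among those called, at a mean of at least 10 CPM and without overlap between the groups, up to 4 per gene list, up to 10 of the covariate fit, genes of counts of 5 or fewer, and markers. The members and lists were chosen with earlier results of these data known.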

Additional observations from a re-analysis of the deposited data

Results flagged for a closer look

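The change from the lower doses to 3 µM differed between 24 h and 6 h, by the interaction term of edgeR at an FDR of 0.1, for 306 of 12790 genes and for 44 of the 108 genes named in the text. The 108 were mostly chosen by a small p at 24 h, and 106 of them passed there. That contrast is part of the interaction term, so the 44 are no independent support. The values below are differences of log2 fold changes, 24 h minus 6 h. Among pseudogenes and the gene without a symbol, the change at 24 h was the more positive in ENSMUSG00000119584 (1.40), Gm44010 (1.31), Gm13498 (1.27), Gm8472 (1.103), Gm10051 (1.02), Rpl28-ps1 (1.02), Gm44703 (0.99), Gm5781 (0.93), Rpl10a-ps1 (0.86) and Rpl35-ps1 (0.82). Among other genes it was the more positive in Eno1b (1.34), Nefm (1.08), Med25 (0.99), Elp6 (0.94), Smtn (0.89), Prmt1 (0.87), Dkc1 (0.87), Atf5 (0.79) and Ap2s1 (0.77), and by less in Lrrc58 (0.73), Psmc1 (0.72), Mthfd2 (0.64), Rpl8 (0.64), Hsp90ab1 (0.63) and Mcm7 (0.59). It was the more negative in Oip5 (−2.17), Socs3 (−1.32), Cdc45 (−1.27), Pggt1b (−1.16), Cdk1 (−1.05), Cxcl5 (−1.01), Yap1 (−0.98), Dctn6 (−0.93), Adamts1 (−0.89), Lats2 (−0.88) and Ndufa8 (−0.83), and by less in Mfsd1 (−0.82), Mmp13 (−0.81), Siva1 (−0.72), Stat3 (−0.67), Tpm4 (−0.61), Itgb1 (−0.58), Cxcl12 (−0.57) and Psma2 (−0.57).

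Oip5 had the largest of these differences. The number of genes rested on the libraries of 3 µM at 24 h. Without replicate 1, 0 genes passed by edgeR (1394 at an unadjusted p under 0.05), and of the 306 genes 303 kept their sign and 293 had an unadjusted p under 0.05. The 306 were chosen with the kept libraries in the fit, so the last 2 counts are no independent support. Without replicate 2 the count was 1115 and without replicate 3 it was 12. The libraries of 6 h mostly had more multiple alignments (23.02 to 27.7 per 100 uniquely mapped reads, against 21.2 to 25.1 at 24 h) and more pseudogene reads (2.87% to 3.96%, against 1.73% to 3.73%), and the part of these measures in the differences was not tested.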

How the results depend on the processing

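No paired analysis was possible because the labels hold no replicate numbers. For 3 µM against the lower doses (1275 genes), DESeq2, RLE normalization, other filters on low counts, and leaving out mitochondrial genes, processed pseudogenes or the vehicle libraries each stayed within 1.5 times that count. It was 720 at an FDR of 0.05, 201 for a trend in log2 dose, and 30, 22, 0 and 175 with the outside-genes share, the log2 read total, the pseudogene share and multiple alignments as covariates. The last 2, like leaving out pseudogenes, were chosen after seeing the data. Beside the 0 there were 695 genes at an unadjusted p under 0.05. Leaving out 1 library in turn gave 68 (3 µM replicate 1) to 2303 (3 µM replicate 2).

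With the same 4 covariates in turn the count against 0.325 µM (964) was 14, 1, 1 and 136, and leaving out 1 library gave 99 (0.325 µM replicate 2) to 1910 (3 µM replicate 2). The count against 0.75 µM (1) was 355 with no filter, 0 with at least 10 reads in every library, 118 by DESeq2, 38 without pseudogenes, 0 with the share outside genes, with the share of pseudogene reads and with multiple alignments, and 0 (without 3 µM replicate 1, among others) to 945 (3 µM replicate 2) with 1 library left out. The count against 1.5 µM (474) was 780 with no filter, 0, 1, 0 and 313 with the 4 covariates, and 0 (3 µM replicate 1) to 1692 (3 µM replicate 2) with 1 library left out. Among the lower doses (1) it was 7 with no filter, 0 with the log2 read total, 4 with multiple alignments, and 0 (0.325 µM replicates 1 or 2) to 1 with 1 library left out. At 6 h (0) it was 2 with no filter and 0 with each library left out. The difference between the times (306) was 604 with no filter, 565 by DESeq2, 7 with the share outside genes, and 0 (3 µM replicate 1) to 1115 (3 µM replicate 2) with 1 library left out. The causes were not tested.

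Calls of list members, counted once per gene, numbered 179, and were 1 with the share outside genes and 15 without 3 µM replicate 1. These are counts only, with no share of the members tested. The difference in the outside-genes share was 1.71 to 2.15 percentage points with 1 library left out. Of 108 genes, 34 kept their direction and side of the threshold without 3 µM replicate 1 and 72 no longer passed, against 103 and 5 by DESeq2. Signs turned with the share of pseudogene reads as a covariate in Gm12346 (−0.041), Gm16148 (−0.18), Gm3362 (−0.13), Pkm (−0.071) and Pfn1 (−0.21), without 3 µM replicate 1 in Pfn1 (−0.17, to 1.05 without replicate 2), and with the share outside genes in Rpl10a (0.41). With 3 libraries a group, 2192094 to 4420675 reads on genes each, levels of a few CPM rest on few reads.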
